A study of Mus musculus with 5 samples.

Results

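The liver transcriptome of C57BL/6J, a widely used inbred laboratory mouse strain, was set against that of NZW/LacJ, the inbred New Zealand White strain. Each strain gave 1 Affymetrix Mouse430_2 array, hybridised with RNA pooled from the livers of 3 untreated males aged 10 weeks, so 2 of the series' 5 arrays were compared. No treatment, engineered allele or dietary group was named for either strain. The arrays of BALB/CByJ, FVB/NJ and RIIIS/J, likewise 1 pool of 3 untreated males of that age each, are given as context. Per the series' design, the arrays followed up an expression locus found elsewhere. Differences are log2 intensity in C57BL/6J minus log2 intensity in NZW/LacJ. A gene is called higher or lower when the strains were at least 2-fold apart. With 1 array per strain there is no replicate spread, no test and no p-value, and precision is limited by having a single array on each side. An intensity belongs to its own probe set, so levels are compared between arrays and not between genes.

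The liver clears and modifies foreign compounds, makes most plasma proteins and balances the synthesis of lipid against its oxidation. Hepatocytes near the central vein and near the portal vein carry different enzymes, and the nuclear receptor PPAR-alpha turns on fatty acid oxidation genes during fasting. Many hepatic genes follow the circadian clock, in which CLOCK and ARNTL drive repressors that peak later in the day. Inflammatory signals instead turn on acute phase genes such as the serum amyloids.

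The table held 18202 genes with a probe set of their own, each represented by whichever of its probe sets had the highest mean over the 5 arrays. Of these, 11261 were above the detection floor, an intensity of 8.48, on at least 1 of the compared arrays, 11118 of them on C57BL/6J and 11078 on NZW/LacJ. The arrays were close in overall scale, with a median over all probe sets of 3.15 log2 units in C57BL/6J and 3.14 in NZW/LacJ, and 3.06 to 3.13 in the context strains. The ratio of the 3' to the 5' control probe set, a gauge of RNA integrity, was 3.93 in C57BL/6J and 3.73 in NZW/LacJ for Actb, and 0.993 in C57BL/6J and 0.954 in NZW/LacJ for Gapdh. None of 11 detected hepatocyte markers was called, and Alb, the serum albumin gene, read 68895 in C57BL/6J and 64650 in NZW/LacJ. Of the markers of other cell types 4 were called: Alas2, given here, and Stab1, Ighm and S100a8, given beside the lists they move with. Sums of marker lists are over all measured members, those under the floor included. The 7 T and NK cell markers, 3 of them detected, summed to 56.1 in C57BL/6J and 55.8 in NZW/LacJ. The 5 cholangiocyte markers, 4 of them detected, summed to 68.4 in C57BL/6J and 79.8 in NZW/LacJ, and the 8 exocrine pancreas markers, 3 of them detected, to 723 in C57BL/6J and 871 in NZW/LacJ. Fabp4, the sole detected adipocyte marker, read 243 in C57BL/6J and 270 in NZW/LacJ. In the erythroid list Alas2 was called lower (1556 in C57BL/6J and 3444 in NZW/LacJ) and Slc4a1 was equal at 13.3. Among the context arrays 2 stood apart. FVB/NJ carried B cell transcripts, with Ms4a1, the CD20 gene, at 1100 against 14.8 to 16.3 elsewhere, and RIIIS/J carried pancreatic protease transcripts, with Cela2a at 15433 against 7.75 to 17.5 elsewhere.

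Of the 11261 detected genes, 466 (4.14%) were called higher in C57BL/6J and 389 (3.45%) were called lower. The median difference over all detected genes was 0.0065, and the central 90% lay between -0.83 and 0.90. The called share varied with level. Genes with a mean log2 intensity of 6 to 9 were called higher in 4.69% and lower in 3.86% of cases, whereas the 664 genes at 12 or above were called higher in 1.66% and lower in 2.71%. Values were exactly equal on both arrays for 779 genes (6.92%). Among the called genes, 53 were under the floor on 1 of the arrays, and their folds are lower bounds, written "at least".

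**Figure D1:**
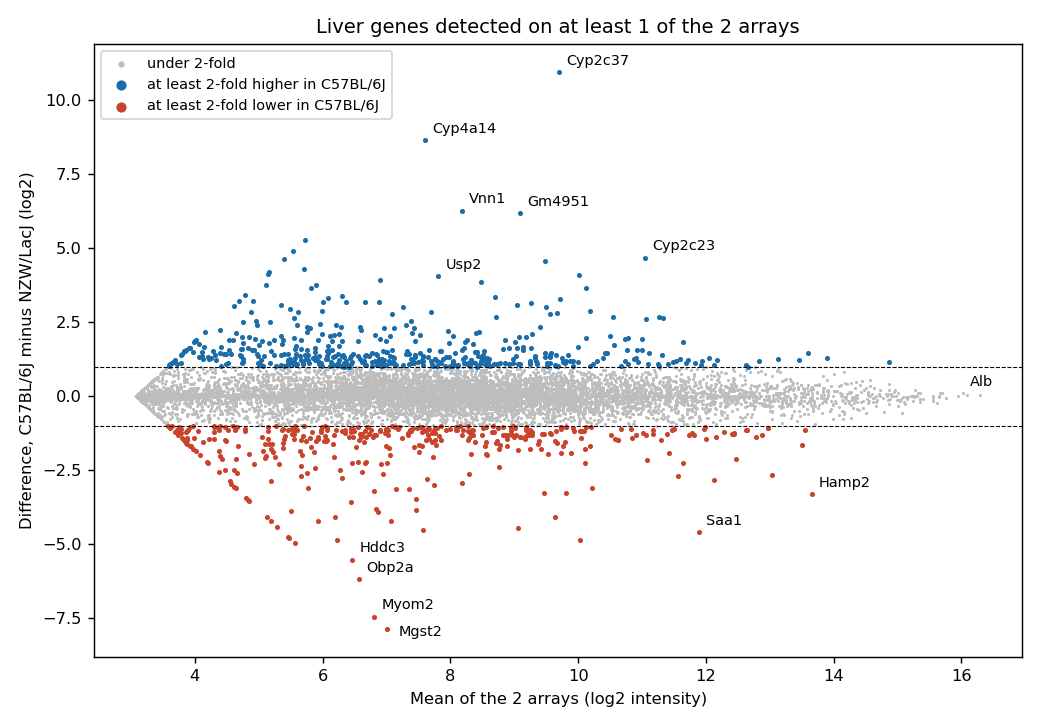
Difference between C57BL/6J and NZW/LacJ (log2, vertical axis) against the mean of the 2 arrays (log2 intensity, horizontal axis) for 11261 detected genes, with dashed lines at 2-fold. Blue points are the 466 genes higher in C57BL/6J and red points the 389 lower, and the diagonal edges on the left are genes whose value on 1 array was raised to the floor.

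Genes of xenobiotic and lipid metabolism led the higher side. Cyp2c37, a Cyp2c cytochrome P450 gene, read 37234 in C57BL/6J and 18.7 in NZW/LacJ, with 29.5 in BALB/CByJ, 28.9 in FVB/NJ and 47003 in RIIIS/J. It was 1989-fold higher in C57BL/6J, and the arrays formed 2 sets, with RIIIS/J beside C57BL/6J and the other arrays near NZW/LacJ. Cyp2c23, an epoxygenase gene, read 10741 in C57BL/6J and 420 in NZW/LacJ, with 599 in BALB/CByJ, 10473 in FVB/NJ and 10558 in RIIIS/J, and was 25.6-fold higher. There the low level was shared by NZW/LacJ and BALB/CByJ. Of the 28 detected members of the Cyp2 and Cyp3 list, 5 were called higher and 2 lower, beside 4.14% higher and 3.45% lower over all detected genes, with a median of 0.11. Cyp2b10, a gene induced through the receptor CAR, read 308 in C57BL/6J and 62.2 in NZW/LacJ, with 392 in BALB/CByJ, 925 in FVB/NJ and 387 in RIIIS/J, and NZW/LacJ was the lowest of the 5 arrays. Its further probe sets read 214 in C57BL/6J and 15.9 in NZW/LacJ, and 223 in C57BL/6J and 18.7 in NZW/LacJ. Cyp2c39 was lower, at 6.25 in C57BL/6J and 157 in NZW/LacJ, at least 18.6-fold apart, with 248 in BALB/CByJ, 631 in FVB/NJ and 19.5 in RIIIS/J. Cyp2c38 was called higher as well (349 in C57BL/6J, 118 in NZW/LacJ), as was Cyp2g1 (29.9 in C57BL/6J, 8.11 in NZW/LacJ, at least 3.53-fold), and Cyp2j6 was called lower (365 in C57BL/6J, 927 in NZW/LacJ). The hydroxylase genes Cyp3a11 (31816 in C57BL/6J, 34526 in NZW/LacJ), Cyp2e1 (43562 in C57BL/6J, 40011 in NZW/LacJ) and Cyp1a2 (17930 in C57BL/6J, 14213 in NZW/LacJ) were within 2-fold. The Cyp2c genes, like the Cyp2b genes, are close in sequence, so which paralog a probe set reads is uncertain.

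Targets of PPAR-alpha were higher as a group. Of 21 detected members of 25 measured, 10 were called higher and 0 lower, beside the background of 4.14% and 3.45%, 20 were above 0, and the median was 0.88 against 0.0065 for all detected genes. Cyp4a14, a fatty acid omega-hydroxylase gene, read 3880 in C57BL/6J and 9.71 in NZW/LacJ, 400-fold apart, with 29.3 in BALB/CByJ, 86.9 in FVB/NJ and 65.7 in RIIIS/J. C57BL/6J was the highest and NZW/LacJ the lowest of the 5 arrays. Vnn1, the gene of a pantetheinase in coenzyme A turnover, read 2557 in C57BL/6J and 33 in NZW/LacJ, 77.4-fold apart, with 45.5 in BALB/CByJ, 33.1 in FVB/NJ and 34.2 in RIIIS/J, and a further probe set read 638 in C57BL/6J and 22 in NZW/LacJ. Its neighbour Vnn3 read 1169 in C57BL/6J and 292 in NZW/LacJ. Both vanin genes were high in C57BL/6J alone, whereas the acyl-CoA thioesterase genes showed NZW/LacJ on the low side. Acot3 read 233 in C57BL/6J and 11.8 in NZW/LacJ, with 42.2 in BALB/CByJ, 718 in FVB/NJ and 113 in RIIIS/J. Acot1 read 374 in C57BL/6J and 90.7 in NZW/LacJ, with 132 in BALB/CByJ, 211 in FVB/NJ and 426 in RIIIS/J. Acot4 (50.7 in C57BL/6J, 17.3 in NZW/LacJ) and Acot2 (91.8 in C57BL/6J, 40.3 in NZW/LacJ) were called higher too, so the 4 neighbouring thioesterases all were; they are similar in sequence, and the probe set of Acot3 is of a type that can read several transcripts. The fatty acid transporter gene Cd36 read 1027 in C57BL/6J and 397 in NZW/LacJ, with 148 in BALB/CByJ, 248 in FVB/NJ and 467 in RIIIS/J, and both of its further probe sets were higher in C57BL/6J. Aldh3a2, a fatty aldehyde dehydrogenase gene, was 3.88-fold higher (3448 in C57BL/6J, 889 in NZW/LacJ), Angptl4, an inhibitor of lipoprotein lipase, 2.64-fold (1497 in C57BL/6J, 567 in NZW/LacJ), and the peroxisomal thiolase gene Acaa1b 2.22-fold (44563 in C57BL/6J, 20095 in NZW/LacJ). Ppara itself read 4172 in C57BL/6J and 2786 in NZW/LacJ, under 2-fold, and the textbook targets Fabp1 (81200 in C57BL/6J, 79512 in NZW/LacJ), Ehhadh (3801 in C57BL/6J, 3224 in NZW/LacJ), Creb3l3 (2431 in C57BL/6J, 2416 in NZW/LacJ) and Pdk4 (80.0 in C57BL/6J, 59.5 in NZW/LacJ) were within 2-fold.

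Mitochondrial fatty acid oxidation showed smaller differences. Of 19 detected genes 3 were called higher and 0 lower (background 4.14% and 3.45%), 16 were above 0, and the median was 0.37. Cpt1a, the carnitine palmitoyltransferase that admits fatty acids to mitochondria, read 2310 in C57BL/6J and 1141 in NZW/LacJ, with 3218 in BALB/CByJ, 2272 in FVB/NJ and 1908 in RIIIS/J. Eci2 read 4095 in C57BL/6J and 1573 in NZW/LacJ, with 6490 in BALB/CByJ, 4052 in FVB/NJ and 2584 in RIIIS/J, and Eci1 read 3537 in C57BL/6J and 1681 in NZW/LacJ; both encode enoyl-CoA isomerases. On the probe sets that stand for these 3 genes, NZW/LacJ was the lowest of the 5 arrays. The further probe sets of Cpt1a were under 2-fold apart, at 0.89 and 0.85 log2. On the first of them RIIIS/J, at 617, lay below NZW/LacJ, at 739. The acyl-CoA dehydrogenase genes Acadm (7811 in C57BL/6J, 4861 in NZW/LacJ), Acadl (6837 in C57BL/6J, 4535 in NZW/LacJ) and Acadvl (5240 in C57BL/6J, 4377 in NZW/LacJ) were within 2-fold.

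Genes of fatty acid and triglyceride synthesis were higher in C57BL/6J in 7 of 28 detected cases and lower in 1 (background 4.14% and 3.45%), with 23 above 0 and a median of 0.53. Elovl6, the elongase of palmitate, read 1525 in C57BL/6J and 299 in NZW/LacJ, 5.11-fold apart, with 874 in BALB/CByJ, 1167 in FVB/NJ and 1195 in RIIIS/J, and both further probe sets were higher by more than 2-fold. Fasn, the fatty acid synthase gene, read 2725 in C57BL/6J and 829 in NZW/LacJ, with 986 in BALB/CByJ, 2037 in FVB/NJ and 1991 in RIIIS/J. Lpin1, which encodes a phosphatidate phosphatase, read 606 in C57BL/6J and 178 in NZW/LacJ, with 552 in BALB/CByJ, 322 in FVB/NJ and 60.6 in RIIIS/J. NZW/LacJ was the lowest array for Elovl6 and Fasn, but RIIIS/J was lower still for Lpin1. The other called genes were Lpin2 (3009 in C57BL/6J, 1015 in NZW/LacJ), the malic enzyme gene Me1 (4785 in C57BL/6J, 1989 in NZW/LacJ), the lipogenic regulator Thrsp (13900 in C57BL/6J, 5797 in NZW/LacJ) and the desaturase gene Fads2 (2931 in C57BL/6J, 1307 in NZW/LacJ). Scd1, the stearoyl-CoA desaturase gene, read 34728 in C57BL/6J and 25929 in NZW/LacJ, under 2-fold. Gpat3, a glycerol phosphate acyltransferase gene, went the other way. It read 25 in C57BL/6J and 301 in NZW/LacJ, 12.1-fold lower in C57BL/6J, with 201 in BALB/CByJ, 201 in FVB/NJ and 206 in RIIIS/J, so C57BL/6J stood alone on the low side.

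Sterol synthesis genes lay mostly above 0. Of 21 detected members 2 were called higher and 1 lower, counts near the background of 4.14% and 3.45%, and 19 were above 0, with a median of 0.42. Idi1, the isopentenyl diphosphate isomerase gene, read 6399 in C57BL/6J and 3113 in NZW/LacJ, with 4993 in BALB/CByJ, 4718 in FVB/NJ and 6362 in RIIIS/J. Hsd17b7, which encodes a sterol ketone reductase, read 974 in C57BL/6J and 433 in NZW/LacJ, with 916 in BALB/CByJ, 1114 in FVB/NJ and 1336 in RIIIS/J. NZW/LacJ was the lowest of the 5 arrays for both, and their further probe sets were also higher in C57BL/6J. Insig2, a gene whose protein holds the SREBP precursors in the endoplasmic reticulum, was 2.73-fold lower (2479 in C57BL/6J, 6776 in NZW/LacJ), while Insig1 read 4702 in C57BL/6J and 3817 in NZW/LacJ. The CCAAT box, bound by the factor NF-Y, is a known element of such promoters. The letters CCAAT, on either strand, were found in 17 of 23 RefSeq promoter windows of this list (73.9%) and in 16 of 34 windows of the fatty acid list (47.1%), against 33.8% of all 32851 windows, each the 250 bases before a start. The 100 bases before the start of Idi1, Hsd17b7 and Fasn, which were higher in C57BL/6J, are shown from RefSeq on GRCm38.p6, with the matches in capitals; capitals of the form ATTGG are matches on the other strand, and the pair in Fasn that runs CCAATTGG is 2 matches that overlap.
Idi1 (chr13:8885506-8885605, plus strand): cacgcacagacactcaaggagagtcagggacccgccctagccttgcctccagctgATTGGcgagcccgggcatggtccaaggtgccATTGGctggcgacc
Hsd17b7 (chr1:169969206-169969305, minus strand): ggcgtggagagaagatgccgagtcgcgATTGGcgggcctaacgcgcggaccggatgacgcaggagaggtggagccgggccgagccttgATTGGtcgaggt
Fasn (chr11:120824548-120824647, minus strand): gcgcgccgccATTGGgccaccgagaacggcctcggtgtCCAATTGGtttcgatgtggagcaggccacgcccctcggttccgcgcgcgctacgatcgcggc
The sequences come from the reference genome and not from NZW/LacJ, and a match describes these letters only.

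Lipid transport and storage genes held single large differences. Pltp, the phospholipid transfer protein gene, read 5238 in C57BL/6J and 865 in NZW/LacJ, 6.06-fold apart, with 802 in BALB/CByJ, 1412 in FVB/NJ and 965 in RIIIS/J, and a further probe set read 693 in C57BL/6J and 99.8 in NZW/LacJ. C57BL/6J stood alone on the high side. In the same list of 18 detected genes, Apoa4 (486 in C57BL/6J, 1554 in NZW/LacJ) and Apoc2 (4778 in C57BL/6J, 11887 in NZW/LacJ) were called lower, and the median was -0.02. Of 11 lipid droplet genes, 3 were called higher and 1 lower. For both lists the background was 4.14% higher and 3.45% lower. G0s2, which encodes an inhibitor of the triglyceride lipase ATGL, read 1075 in C57BL/6J and 352 in NZW/LacJ, and Pnpla2, the gene of ATGL itself, read 386 in C57BL/6J and 179 in NZW/LacJ. The droplet-forming gene Fitm1 was the other higher member (746 in C57BL/6J, 342 in NZW/LacJ). Abhd5, whose protein activates ATGL, was lower, at 265 in C57BL/6J and 850 in NZW/LacJ.

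**Figure D2:**
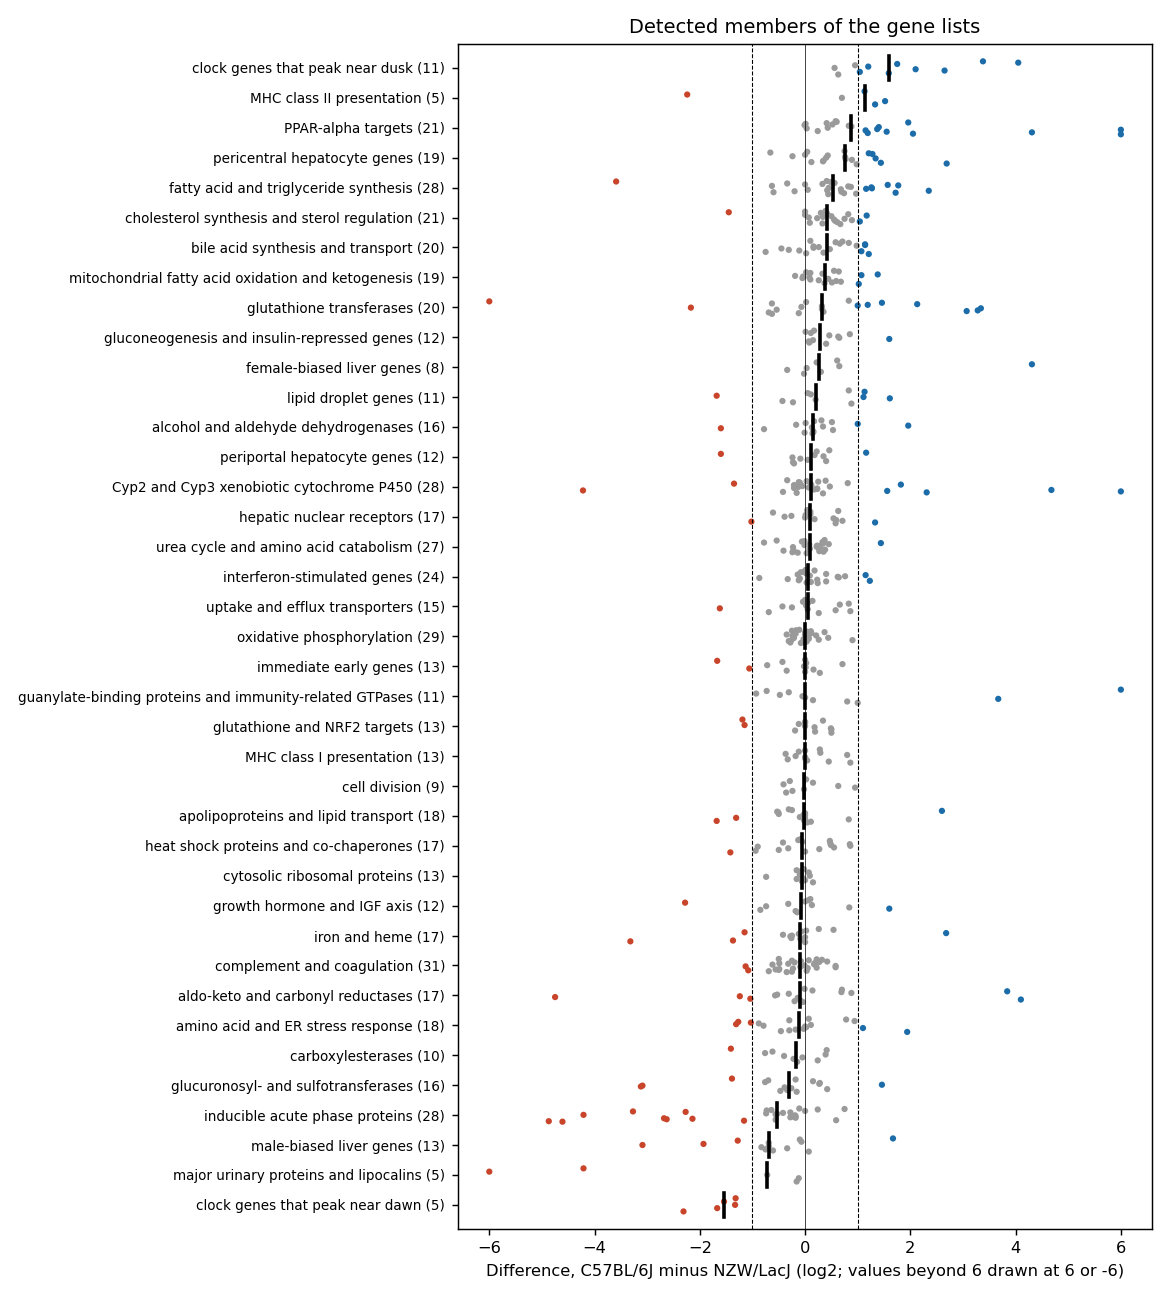
Difference between C57BL/6J and NZW/LacJ (log2, horizontal axis) for each detected member of 39 gene lists (rows, number detected in brackets), ordered by median. Blue points are members at least 2-fold higher in C57BL/6J, red points members at least 2-fold lower, grey points the rest, and black bars list medians, which run from -1.54 for clock genes that peak near dawn to 1.59 for those that peak near dusk.

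Clock genes differed by phase. Of 11 detected genes that peak near dusk, 8 were called higher in C57BL/6J and 0 lower, beside 4.14% and 3.45% over all detected genes, all 11 were above 0, and the median was 1.59. Of 5 genes that peak near dawn, all 5 were called lower, with a median of -1.54. Usp2, a rhythmic deubiquitinase gene, read 914 in C57BL/6J and 55.3 in NZW/LacJ, 16.5-fold apart, with 718 in BALB/CByJ, 930 in FVB/NJ and 23.4 in RIIIS/J. Dbp, an output transcription factor gene, read 6439 in C57BL/6J and 1023 in NZW/LacJ, 6.29-fold apart, with 8951 in BALB/CByJ, 4940 in FVB/NJ and 75.5 in RIIIS/J, and a further probe set read 2006 in C57BL/6J and 222 in NZW/LacJ. For both genes RIIIS/J lay below NZW/LacJ. Noct, which encodes a rhythmic phosphatase, read 255 in C57BL/6J and 24.5 in NZW/LacJ, with 1077 in BALB/CByJ, 479 in FVB/NJ and 277 in RIIIS/J, and NZW/LacJ alone was low. Tef (1293 in C57BL/6J, 301 in NZW/LacJ), a relative of Dbp, was called higher, as were the repressor genes Nr1d1 (314 in C57BL/6J, 136 in NZW/LacJ), Per2 (87.7 in C57BL/6J, 29 in NZW/LacJ), Per3 (104 in C57BL/6J, 50.6 in NZW/LacJ) and Ciart (75.6 in C57BL/6J, 22.4 in NZW/LacJ). Further probe sets differed by 0.27 and 1.06 log2 for Tef, by 0.23 for Per2 and by 0.03 to 1.66 for Per3. Per1 (29.4 in C57BL/6J, 19 in NZW/LacJ), Hlf (639 in C57BL/6J, 432 in NZW/LacJ) and Nr1d2 (4108 in C57BL/6J, 2131 in NZW/LacJ) were under 2-fold.

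On the dawn side, Arntl, which encodes the activator BMAL1, read 13.7 in C57BL/6J and 68.1 in NZW/LacJ, 4.96-fold lower in C57BL/6J, with 14.1 in BALB/CByJ, 14.1 in FVB/NJ and 156 in RIIIS/J. Clock, the gene of its partner, read 286 in C57BL/6J and 723 in NZW/LacJ, with 230 in BALB/CByJ, 214 in FVB/NJ and 756 in RIIIS/J. Nfil3, a repressor gene, read 222 in C57BL/6J and 644 in NZW/LacJ, with 274 in BALB/CByJ, 229 in FVB/NJ and 840 in RIIIS/J. In these 3 genes RIIIS/J lay with NZW/LacJ, and BALB/CByJ and FVB/NJ lay with C57BL/6J. Npas2, which can replace Clock, read 6.44 in C57BL/6J and 27 in NZW/LacJ, at least 3.18-fold apart, and the repressor gene Cry1 read 102 in C57BL/6J and 254 in NZW/LacJ, with 136 in BALB/CByJ, 272 in FVB/NJ and 375 in RIIIS/J, so that for Cry1 FVB/NJ lay with NZW/LacJ. The time of day at which livers were taken was not given in the sources used here, and its part in these differences was not tested.

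**Figure D3:**
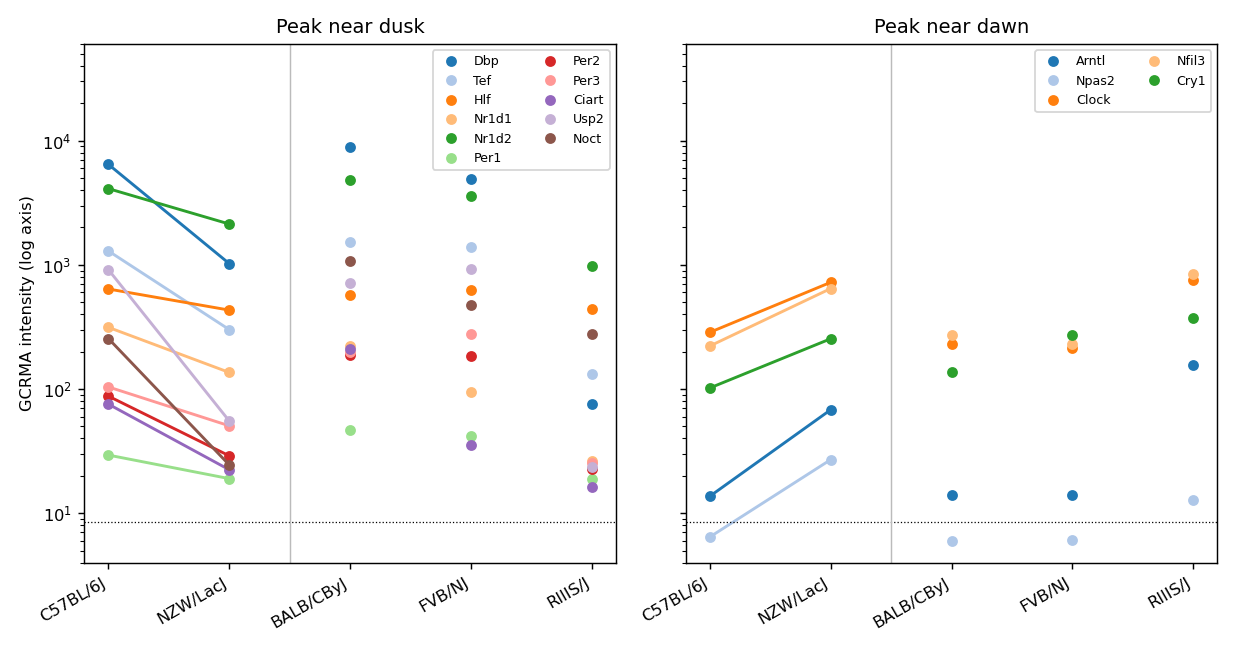
GCRMA intensity (vertical log axis) of 11 clock genes that peak near dusk (left) and 5 that peak near dawn (right) on each array, 1 point per gene and strain; lines join C57BL/6J with NZW/LacJ, the grey line sets off the context strains and the dotted line is the floor at 8.48. All dusk genes were higher in C57BL/6J than in NZW/LacJ and all dawn genes lower.

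The E-box CACGTG, the element bound by CLOCK and ARNTL, reads the same on both strands. It was found in 5 of 13 promoter windows of the dusk list (38.5%), in 1 of 8 windows of the dawn list (12.5%) and in 6.02% of all 32851 windows. By gene, 4 of the 11 dusk genes with a window held an E-box. Ciart and Tef, both higher in C57BL/6J, are shown as examples that hold a match. Of the 150 bases before the start, those of Ciart hold 3 E-boxes and those of Tef hold 1. For Tef, 1 of its 2 windows is shown. The sequences are RefSeq's on GRCm38.p6, with E-boxes in capitals.
Ciart (chr3:95882229-95882378, minus strand): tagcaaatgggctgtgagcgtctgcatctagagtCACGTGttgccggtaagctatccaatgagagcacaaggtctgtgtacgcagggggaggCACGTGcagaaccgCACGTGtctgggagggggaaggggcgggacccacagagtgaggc
Tef (chr15:81802523-81802672, plus strand): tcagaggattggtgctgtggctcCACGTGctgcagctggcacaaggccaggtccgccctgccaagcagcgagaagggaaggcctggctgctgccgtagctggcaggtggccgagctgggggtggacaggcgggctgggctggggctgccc
A missing match elsewhere says only that these letters are not in the window.

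Inducible acute phase genes were called in a single direction, lower in C57BL/6J. Of 28 detected members 9 were called lower and 0 higher, beside 3.45% lower and 4.14% higher over all detected genes, 25 were below 0, and the median was -0.54. Saa1, a serum amyloid A gene, read 766 in C57BL/6J and 18764 in NZW/LacJ, 24.5-fold apart, with 642 in BALB/CByJ, 1310 in FVB/NJ and 449 in RIIIS/J, and a further probe set read 567 in C57BL/6J and 14837 in NZW/LacJ. Saa2 read 193 in C57BL/6J and 5624 in NZW/LacJ, 29.2-fold apart, with 225 in BALB/CByJ, 225 in FVB/NJ and 80.1 in RIIIS/J. NZW/LacJ stood alone on the high side for both. Lcn2, whose product binds bacterial siderophores, read 14.1 in C57BL/6J and 261 in NZW/LacJ, 18.5-fold apart, with 33 in BALB/CByJ, 32.7 in FVB/NJ and 37.1 in RIIIS/J, so C57BL/6J was the lowest and NZW/LacJ the highest array. Apcs, the serum amyloid P gene, read 3324 in C57BL/6J and 21309 in NZW/LacJ, with 12028 in BALB/CByJ, 4926 in FVB/NJ and 2782 in RIIIS/J. The orosomucoid genes Orm2 (126 in C57BL/6J, 776 in NZW/LacJ) and Orm3 (10.3 in C57BL/6J, 45.1 in NZW/LacJ) and the amyloid gene Saa3 (128 in C57BL/6J, 286 in NZW/LacJ) were also called lower. Mt2, a metal-binding metallothionein gene, read 228 in C57BL/6J and 2201 in NZW/LacJ, with 855 in BALB/CByJ, 1356 in FVB/NJ and 1274 in RIIIS/J, and Mt1 read 1460 in C57BL/6J and 7021 in NZW/LacJ, with 3372 in BALB/CByJ, 4235 in FVB/NJ and 3995 in RIIIS/J. In contrast to the amyloid genes, the metallothioneins were low in C57BL/6J alone, although a further probe set of Mt1 read 11 in both strains. Members within 2-fold included the fibrinogen genes Fga (45159 in C57BL/6J, 51304 in NZW/LacJ), Fgb (46265 in C57BL/6J, 54785 in NZW/LacJ) and Fgg (38979 in C57BL/6J, 44583 in NZW/LacJ), the haptoglobin gene Hp (26967 in C57BL/6J, 32791 in NZW/LacJ) and Crp (7874 in C57BL/6J, 8893 in NZW/LacJ). Socs3, an inhibitor of cytokine signalling, read 225 in C57BL/6J and 352 in NZW/LacJ. The signs of the cytokine receptor genes differed, with Il6ra at 221 in C57BL/6J, 132 in NZW/LacJ and Il1r1 at 220 in C57BL/6J, 237 in NZW/LacJ. Beside this list, the neutrophil markers S100a8 (10.6 in C57BL/6J, 21.8 in NZW/LacJ) and S100a9 (22.3 in C57BL/6J, 35.9 in NZW/LacJ) were the 2 detected of 6 measured, and all 6 summed to 51.8 in C57BL/6J and 76.6 in NZW/LacJ. The 12 Kupffer cell markers, 11 of them detected, summed to 5606 in C57BL/6J and 6179 in NZW/LacJ, with 0 called. Their part in the acute phase difference was not tested.

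C/EBP factors bind acute phase promoters, and their site was searched as TTGCNNAA on both strands. It was found in 14 of 27 promoter windows of this list (51.9%) and in 9.56% of all windows. Saa1 and Saa2 are shown with 250 bases and Orm2 and Orm3 with 150 bases before the start, as examples that hold a match. Each pair of neighbours was lower together. Sequences are RefSeq's on GRCm38.p6, with the match in capitals.
Saa1 (chr7:46742981-46743230, minus strand): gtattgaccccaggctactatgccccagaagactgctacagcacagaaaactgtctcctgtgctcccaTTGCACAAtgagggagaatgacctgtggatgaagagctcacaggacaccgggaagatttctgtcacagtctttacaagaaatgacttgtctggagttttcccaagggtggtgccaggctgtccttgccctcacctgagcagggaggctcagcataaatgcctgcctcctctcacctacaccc
Saa2 (chr7:46751583-46751832, plus strand): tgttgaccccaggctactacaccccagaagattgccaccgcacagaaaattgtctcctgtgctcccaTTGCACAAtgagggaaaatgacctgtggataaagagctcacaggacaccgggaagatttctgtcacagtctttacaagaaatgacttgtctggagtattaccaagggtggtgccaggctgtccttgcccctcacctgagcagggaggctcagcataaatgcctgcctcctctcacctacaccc
Orm2 (chr4:63362299-63362448, plus strand): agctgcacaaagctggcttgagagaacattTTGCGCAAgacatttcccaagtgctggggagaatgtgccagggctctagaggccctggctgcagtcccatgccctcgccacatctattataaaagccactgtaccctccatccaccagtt
Orm3 (chr4:63356008-63356157, plus strand): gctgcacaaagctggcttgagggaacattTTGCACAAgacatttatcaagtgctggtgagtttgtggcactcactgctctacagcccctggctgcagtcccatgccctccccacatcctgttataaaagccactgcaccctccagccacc
Over the 250 bases before the start, which for Orm2 and Orm3 is more than is shown, Saa1 and Saa2 were identical at 238 of 249 aligned positions (95.6%) and Orm2 and Orm3 at 218 of 245 (89.0%). The probe sets that stand for Saa1 and Saa2 end in _s_at and _x_at, the types that can read near-identical transcripts. The split between the Saa genes is therefore uncertain, although the further probe set of Saa1 is of neither type.

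Other secreted proteins were mixed. Of 31 detected complement and coagulation genes, 0 were called higher and 2 lower, namely the mannose-binding lectin gene Mbl1 (4313 in C57BL/6J, 9414 in NZW/LacJ) and C8b (5539 in C57BL/6J, 11740 in NZW/LacJ), and the median was -0.09. The background was 4.14% higher and 3.45% lower, so the count is near it. Obp2a, an odorant-binding lipocalin gene, read 11.1 in C57BL/6J and 811 in NZW/LacJ, 72.8-fold apart, with 6.38 in BALB/CByJ, 7.22 in FVB/NJ and 159 in RIIIS/J. The major urinary protein genes Mup3 (36560 in C57BL/6J, 40758 in NZW/LacJ), Mup10 (4893 in C57BL/6J, 8045 in NZW/LacJ) and Mup5 (282 in C57BL/6J, 306 in NZW/LacJ), whose probe sets may read several of these near-identical genes, were within 2-fold. Defb1, a defensin gene, read 13.8 in C57BL/6J and 405 in NZW/LacJ, 29.3-fold apart, with 13.4 in BALB/CByJ, 11.8 in FVB/NJ and 12.2 in RIIIS/J, and stood high in NZW/LacJ alone. Serpina12, which encodes the adipokine vaspin, read 1668 in C57BL/6J and 11999 in NZW/LacJ, with 490 in BALB/CByJ, 2051 in FVB/NJ and 3525 in RIIIS/J. Its neighbours Serpina9 (12 in C57BL/6J, 52 in NZW/LacJ) and Serpina4-ps1 (491 in C57BL/6J, 1838 in NZW/LacJ) were lower in C57BL/6J too, though NZW/LacJ was not the highest array for either of them.

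Iron genes included Hamp2, a hepcidin gene, at 4079 in C57BL/6J and 40752 in NZW/LacJ, 9.99-fold apart, with 2258 in BALB/CByJ, 4695 in FVB/NJ and 38310 in RIIIS/J. RIIIS/J lay with NZW/LacJ, while the related Hamp read 39899 in C57BL/6J and 39969 in NZW/LacJ. Tfrc, the transferrin receptor gene, read 337 in C57BL/6J and 874 in NZW/LacJ, with 1432 in BALB/CByJ, 1248 in FVB/NJ and 1202 in RIIIS/J, but further probe sets of Tfrc did not show it, reading for example 26.3 in C57BL/6J and 27.3 in NZW/LacJ. In heme synthesis the rate-limiting Alas1 was 6.40-fold higher, at 6217 in C57BL/6J and 972 in NZW/LacJ, with 12738 in BALB/CByJ, 8409 in FVB/NJ and 1704 in RIIIS/J. Alad, the next enzyme of that pathway, was lower, at 4257 in C57BL/6J and 9444 in NZW/LacJ, with 12311 in BALB/CByJ, 8396 in FVB/NJ and 9377 in RIIIS/J. The list of 17 detected iron and heme genes had 1 member higher and 3 lower (background 4.14% and 3.45%), and a median of -0.09.

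Zonation was described by a pericentral and a periportal list. Of 19 detected pericentral genes 5 were called higher in C57BL/6J and 0 lower (background 4.14% and 3.45%), 17 were above 0, and the median was 0.75. Of 12 detected periportal genes 1 was higher (Etnppl; 4270 in C57BL/6J, 1913 in NZW/LacJ) and 1 lower (Aldh1b1; 470 in C57BL/6J, 1423 in NZW/LacJ), with a median of 0.12. Slc1a2, a glutamate transporter gene of the cells around the central vein, read 1071 in C57BL/6J and 166 in NZW/LacJ, 6.46-fold apart, with 414 in BALB/CByJ, 414 in FVB/NJ and 473 in RIIIS/J. Its further probe sets were under 2-fold apart, at 59.5 in C57BL/6J and 40.0 in NZW/LacJ, and at 227 in C57BL/6J and 173 in NZW/LacJ, and NZW/LacJ was not the lowest array on either. Oat, the ornithine aminotransferase gene, read 20383 in C57BL/6J and 7536 in NZW/LacJ, with 11687 in BALB/CByJ, 10697 in FVB/NJ and 24434 in RIIIS/J. Rnf43, a target and inhibitor of Wnt signalling, read 116 in C57BL/6J and 45.8 in NZW/LacJ. On the probe sets that stand for these 3 genes, NZW/LacJ was the lowest of the 5 arrays. Ahr, the dioxin receptor gene (1348 in C57BL/6J, 554 in NZW/LacJ), and Cyp7a1, the rate-limiting enzyme of bile acid synthesis (5113 in C57BL/6J, 2217 in NZW/LacJ), were the other called members. Glul, the glutamine synthetase gene, read 9787 in C57BL/6J and 4947 in NZW/LacJ, 1.98-fold and so just under the threshold, and the Wnt receptor partner Lgr5 read 56.1 in C57BL/6J and 30.2 in NZW/LacJ. The broadly pericentral Cyp2e1 and Cyp1a2 were within 2-fold, as given above. In whole liver RNA, fewer cells of a type and less RNA per cell cannot be told apart. Endothelial markers, 11 of 14 above 0 with Stab1 called (184 in C57BL/6J, 83 in NZW/LacJ), summed to 3708 in C57BL/6J and 3207 in NZW/LacJ, and stellate and fibroblast markers, 10 of 12 detected above 0 with 0 called, to 10004 in C57BL/6J and 9077 in NZW/LacJ. Their part was not tested.

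Bile acid genes followed with 4 of 20 detected members higher and 0 lower (background 4.14% and 3.45%), and a median of 0.41. Besides Cyp7a1 these were the oxysterol hydroxylase gene Cyp39a1 (460 in C57BL/6J, 219 in NZW/LacJ) and the neighbours Abcg5 and Abcg8, whose proteins form the canalicular sterol exporter. Abcg5 read 1525 in C57BL/6J and 692 in NZW/LacJ, with 2308 in BALB/CByJ, 1497 in FVB/NJ and 813 in RIIIS/J. Abcg8 read 575 in C57BL/6J and 260 in NZW/LacJ, with 994 in BALB/CByJ, 394 in FVB/NJ and 177 in RIIIS/J. The levels of the exporter pair were low in RIIIS/J as in NZW/LacJ. The bile salt exporter gene Abcb11 (5574 in C57BL/6J, 4992 in NZW/LacJ) and the sterol hydroxylase gene Cyp8b1 (7124 in C57BL/6J, 7028 in NZW/LacJ) were within 2-fold.

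Conjugating enzymes split in both directions. Among 20 glutathione transferase genes 7 were called higher and 2 lower (background 4.14% and 3.45%), with a median of 0.32. Gstm6 read 1323 in C57BL/6J and 131 in NZW/LacJ, with 2045 in BALB/CByJ, 523 in FVB/NJ and 99.5 in RIIIS/J. Gstm3 read 2629 in C57BL/6J and 271 in NZW/LacJ, with 1595 in BALB/CByJ, 2562 in FVB/NJ and 71.2 in RIIIS/J, and Gstm2 read 1526 in C57BL/6J and 182 in NZW/LacJ, with 4041 in BALB/CByJ, 1081 in FVB/NJ and 217 in RIIIS/J. The low levels of these 3 neighbours were shared by RIIIS/J, while their relative Gstm7 ran the other way (1015 in C57BL/6J, 4562 in NZW/LacJ). Among the theta class, Gstt3 read 713 in C57BL/6J and 162 in NZW/LacJ, with 481 in BALB/CByJ, 421 in FVB/NJ and 375 in RIIIS/J, and its neighbour Gstt1 (9177 in C57BL/6J, 4573 in NZW/LacJ) and Gstt2 (2565 in C57BL/6J, 1120 in NZW/LacJ) were called higher as well. Gsto1, of the omega class, was the seventh (3664 in C57BL/6J, 1336 in NZW/LacJ), though a further probe set of it was under 2-fold apart, at 1792 in C57BL/6J and 1566 in NZW/LacJ. Mgst2, a microsomal transferase that can make leukotriene C4, read 7.11 in C57BL/6J and 1978 in NZW/LacJ, at least 233-fold lower in C57BL/6J, with 6.96 in BALB/CByJ, 6.83 in FVB/NJ and 7.11 in RIIIS/J, and was detected in NZW/LacJ alone. Gstp3, which is outside the list, was 17-fold lower, at 192 in C57BL/6J and 3271 in NZW/LacJ, with 303 in BALB/CByJ, 18002 in FVB/NJ and 230 in RIIIS/J. The Gstm and Gstp genes are close in sequence, so their probe sets may read each other. Of 16 glucuronosyl- and sulfotransferase genes, 1 was higher (Ugt3a1; 1191 in C57BL/6J, 433 in NZW/LacJ) and 3 lower, the lower ones being Ugt2b37 (18.5 in C57BL/6J, 161 in NZW/LacJ), Ugt2b38 (408 in C57BL/6J, 3468 in NZW/LacJ) and Sult5a1 (342 in C57BL/6J, 894 in NZW/LacJ), and the median was -0.30.

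Aldo-keto and carbonyl reductases likewise diverged within a gene cluster. Akr1c12 read 4284 in C57BL/6J and 250 in NZW/LacJ, 17.2-fold higher, with 3745 in BALB/CByJ, 3276 in FVB/NJ and 3343 in RIIIS/J, so NZW/LacJ alone was low. Akr1c18, the gene of the progesterone-inactivating reductase, read 6.46 in C57BL/6J and 228 in NZW/LacJ, at least 26.9-fold lower, with 6.33 in BALB/CByJ, 5.99 in FVB/NJ and 6.37 in RIIIS/J, and was detected in NZW/LacJ alone. Akr1c13 (2822 in C57BL/6J, 5795 in NZW/LacJ) and Akr1c19 (3630 in C57BL/6J, 8589 in NZW/LacJ) were lower too. Cbr1, a carbonyl reductase gene, read 1343 in C57BL/6J and 94 in NZW/LacJ, 14.3-fold higher, with 1636 in BALB/CByJ, 1542 in FVB/NJ and 1343 in RIIIS/J, and was low in NZW/LacJ alone. Over 17 detected genes of the list 2 were higher and 3 lower (background 4.14% and 3.45%), with a median of -0.09. The Akr1c paralogs share sequence, so assignment within the cluster is uncertain.

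Genes with a sex bias in liver were compared within males. Of 13 detected male-biased genes 1 was called higher and 3 lower in C57BL/6J (background 4.14% and 3.45%), 11 were below 0, and the median was -0.69. The lower members were Ugt2b38, given above, Susd4, a complement inhibitor gene (435 in C57BL/6J, 1659 in NZW/LacJ), and the acetyltransferase gene Nat8f5 (487 in C57BL/6J, 1185 in NZW/LacJ). Bcl6, a repressor gene that is itself male-biased, was higher, at 1009 in C57BL/6J and 317 in NZW/LacJ, with 357 in BALB/CByJ, 523 in FVB/NJ and 406 in RIIIS/J. Cish, a target and inhibitor of growth hormone signalling, read 54.7 in C57BL/6J and 267 in NZW/LacJ, 4.87-fold lower, with 71.8 in BALB/CByJ, 21.7 in FVB/NJ and 101 in RIIIS/J. The receptor gene Ghr (11253 in C57BL/6J, 12498 in NZW/LacJ) and Igf1 (8371 in C57BL/6J, 9491 in NZW/LacJ) were within 2-fold. With Cish they belong to the list of the growth hormone and IGF axis. Of its 12 detected genes 1 was called higher and 1, Cish, lower, beside the same background, with a median of -0.08. Of 8 detected female-biased genes, the called member was Acot3.

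Immune recognition genes are given by list, beside the background of 4.14% higher and 3.45% lower. Gm4951, an interferon-inducible GTPase gene, read 4636 in C57BL/6J and 63.9 in NZW/LacJ, 72.6-fold higher, with 3688 in BALB/CByJ, 4127 in FVB/NJ and 3119 in RIIIS/J, so NZW/LacJ alone was low. Gbp7, a guanylate-binding protein gene, read 202 in C57BL/6J and 15.9 in NZW/LacJ, with 243 in BALB/CByJ, 275 in FVB/NJ and 105 in RIIIS/J. These were the called genes among 11 of that list, whose median was 0.00. Of 24 interferon-stimulated genes 2 were called higher, the transcription factor gene Irf7 (83.5 in C57BL/6J, 35.6 in NZW/LacJ) and Ifi27 (1288 in C57BL/6J, 581 in NZW/LacJ), with a median of 0.06. None of 13 genes of MHC class I presentation was called.

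In MHC class II, 3 of 5 detected genes were higher and 1 lower (background 4.14% and 3.45%), with 4 of the 9 measured under the floor on both arrays. H2-Aa read 476 in C57BL/6J and 190 in NZW/LacJ, with 141 in BALB/CByJ, 3105 in FVB/NJ and 37.7 in RIIIS/J, the high FVB/NJ level being on the array with B cell transcripts. Its neighbour H2-Ab1 read 386 in C57BL/6J and 135 in NZW/LacJ, and the invariant chain gene Cd74 read 651 in C57BL/6J and 297 in NZW/LacJ. Further probe sets of H2-Ab1 read 67.4 in C57BL/6J and 24.7 in NZW/LacJ, and 43.5 in both. The list's median was 1.13, and -0.77 over the 2 members left without probe sets of the types that can read several transcripts. The chain gene H2-Ea went the other way, at 43.1 in C57BL/6J and 204 in NZW/LacJ, with 73.6 in BALB/CByJ, 73.6 in FVB/NJ and 40.3 in RIIIS/J, and a further probe set read 6.45 in C57BL/6J, under the floor, and 120 in NZW/LacJ. H2-Ea is known from mouse genetics not to be transcribed in the H2 haplotype of C57BL/6J. The 6 measured B cell markers summed to 227 in C57BL/6J and 105 in NZW/LacJ. Of the 3 that were detected, Ighm was called (178 in C57BL/6J, 49.2 in NZW/LacJ) while Ms4a1 (16.3 in C57BL/6J, 15.8 in NZW/LacJ) and Cd79b (16.4 in C57BL/6J, 23.5 in NZW/LacJ) were not, and Cd79a was under the floor on both arrays. Their part in the class II levels was not tested.

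Several further lists had at most 1 called gene, where the background was 4.14% higher and 3.45% lower, and counts this small do not set a list apart from it. Oxidative phosphorylation had 0 of 29 detected genes called in either direction and a median of 0.00. Cytosolic ribosomal proteins had 0 of 13 called and a median of -0.06, and cell division genes had 0 of 9 called and a median of -0.02. Urea cycle and amino acid catabolism had 1 of 27 higher, namely Oat, and a median of 0.09. Gluconeogenesis and insulin-repressed genes had 1 of 12 higher, Igfbp1, at 788 in C57BL/6J and 260 in NZW/LacJ, with 114 in BALB/CByJ, 139 in FVB/NJ and 146 in RIIIS/J. All 12 were above 0, with a median of 0.29, and Pck1, the key gluconeogenic enzyme gene, read 16061 in C57BL/6J and 12143 in NZW/LacJ.

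Among the leading genes outside these groups, Reep3, whose product clears endoplasmic reticulum from chromosomes in mitosis, read 3506 in C57BL/6J and 146 in NZW/LacJ, 24-fold higher. A further probe set of Reep3 read 974 in C57BL/6J and 21.4 in NZW/LacJ, whereas its other 4 detected probe sets differed by 0.34 to 0.64 log2. Pttg1, whose product securin restrains chromatid separation, read 3948 in C57BL/6J and 316 in NZW/LacJ, with 314 in BALB/CByJ, 552 in FVB/NJ and 166 in RIIIS/J, and was high in C57BL/6J alone on all 3 of its probe sets. Hspb6, a small heat shock protein gene (219 in C57BL/6J, 16.3 in NZW/LacJ), Them7 (467 in C57BL/6J, 30.6 in NZW/LacJ), 4931408D14Rik (128 in C57BL/6J, 9.39 in NZW/LacJ), Dcakd (92.3 in C57BL/6J, 9.84 in NZW/LacJ) and Gm13306 (214 in C57BL/6J, 21.3 in NZW/LacJ) completed the 20 largest measured differences on the higher side. Genes under the floor in NZW/LacJ were led by Zfp874a, which read 328 in C57BL/6J and 8.28 in NZW/LacJ, at least 38.7-fold higher, then Gm7969 (at least 30.1-fold), 1700001C19Rik (at least 24.8-fold), Gm2788 (at least 18.1-fold) and the oligodendrocyte transcription factor gene Olig1 (at least 17.4-fold). The 2 kinds differed in context. Zfp874a, Gm7969 and Olig1 were under the floor in all of the other strains, whereas 1700001C19Rik and Gm2788 were detected in all of them, so that NZW/LacJ alone lacked signal. The remaining bounds were at least 10.7-fold for Trim34a, 9.38-fold for Trim30d, 8.27-fold for the apoptosis gene Bcl2l11, 4.43-fold for Mapkapk3 and 3.67-fold for Rab30. Without the probe set types named for Acot3, Trim34a stood at -0.36 log2 and Rab30 at 0.00.

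On the lower side Hddc3, a gene of the nucleotide hydrolase MESH1, read 13 in C57BL/6J and 599 in NZW/LacJ, 46.1-fold apart, with 375 in BALB/CByJ, 195 in FVB/NJ and 496 in RIIIS/J, and was low in C57BL/6J alone. Ctse, the cathepsin E gene, read 113 in C57BL/6J and 2493 in NZW/LacJ, with 482 in BALB/CByJ, 251 in FVB/NJ and 125 in RIIIS/J. A further probe set of Ctse read 19.7 in C57BL/6J and 134 in NZW/LacJ, with 239 in BALB/CByJ, 786 in FVB/NJ and 33.6 in RIIIS/J, so the order of the context strains differed between its probe sets. Acnat2, an acyl-CoA amino acid acyltransferase gene, read 31.2 in C57BL/6J and 579 in NZW/LacJ, with 22 in BALB/CByJ, 237 in FVB/NJ and 312 in RIIIS/J. Others among the 20 largest were Chic1 (17.8 in C57BL/6J, 300 in NZW/LacJ), Lratd2 (30.2 in C57BL/6J, 453 in NZW/LacJ), the ferritin receptor gene Scara5 (11.8 in C57BL/6J, 176 in NZW/LacJ), the methyltransferase gene Vcpkmt (46.4 in C57BL/6J, 664 in NZW/LacJ), the inhibitory receptor gene Pilra (30.6 in C57BL/6J, 426 in NZW/LacJ), Enho, which encodes adropin (286 in C57BL/6J, 2788 in NZW/LacJ), and Pik3ap1 (52.4 in C57BL/6J, 587 in NZW/LacJ). For Pik3ap1 a further probe set ran the other way, at 50.2 in C57BL/6J and 44.8 in NZW/LacJ. Myom2, a sarcomere protein gene, read 5.59 in C57BL/6J and 1482 in NZW/LacJ, at least 175-fold lower, with 5.04 in BALB/CByJ, 4.95 in FVB/NJ and 5.49 in RIIIS/J. Its further probe sets read 5.41 in C57BL/6J and 295 in NZW/LacJ, and 4.62 in C57BL/6J and 255 in NZW/LacJ, so the transcript was detected in NZW/LacJ alone on all 3. The chemokine gene Cxcl14 read 5.83 in C57BL/6J and 268 in NZW/LacJ, at least 31.6-fold lower, though a further probe set read 7.63 in C57BL/6J and 14.1 in NZW/LacJ. The remaining bounds were at least 27.8-fold for the formin gene Fmn2, 21.4-fold for the calpain gene Capn8, 17.1-fold for Mrap2, 11.6-fold for Fam107a and 11.4-fold for BC023105.

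**Figure D4:**
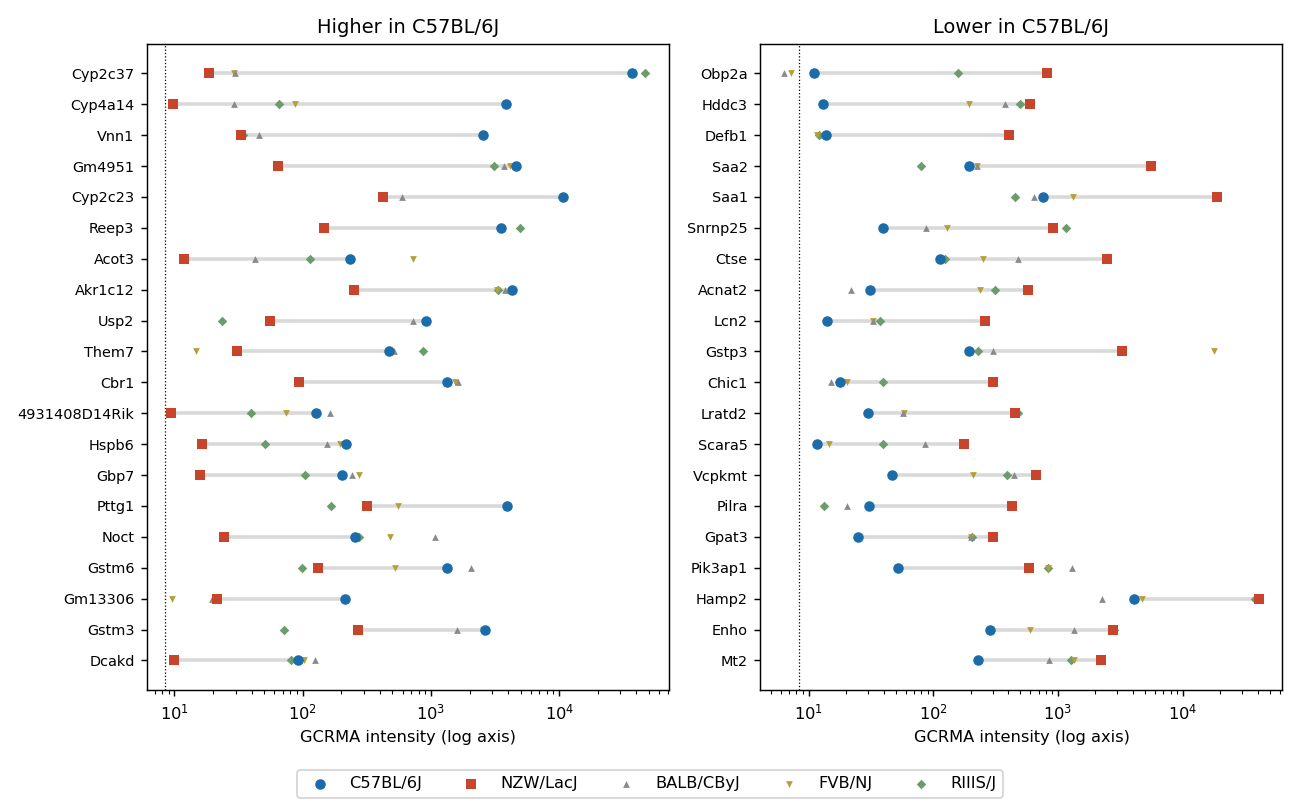
GCRMA intensity (horizontal log axis) on the 5 arrays for the 20 genes with the largest measured difference in each direction (rows). Large blue circles are C57BL/6J, large red squares NZW/LacJ and small markers the context strains, which can lie behind the large ones; grey bars join the compared strains and the dotted line is the floor at 8.48.

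The context strains divided the called genes. Of the 466 genes higher in C57BL/6J, C57BL/6J was at least 2-fold apart from all of the other 3 strains on its side in 56, NZW/LacJ in 84, both in 2 and neither in 324. Of the 389 genes lower in C57BL/6J, the counts were 49 for C57BL/6J, 89 for NZW/LacJ, 1 for both and 250 for neither. BALB/CByJ was nearer to C57BL/6J than to NZW/LacJ in 583 of the 855 called genes (68.2%) and FVB/NJ in 565 (66.1%), whereas RIIIS/J was nearer to C57BL/6J in 389 (45.5%). These shares involve the same C57BL/6J and NZW/LacJ values and are descriptions.

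Some called genes were neighbours in gene order. Of 18153 genes with a place in the reference gene table, 88 called genes formed 41 runs of adjacent genes called the same way, 20 of them higher and 21 lower. Adjacent means next in order among the measured genes, so unmeasured genes can lie between. The number of runs that would arise by chance was not computed. Runs of 3 or more numbered 5. The higher ones were the thioesterases Acot2, Acot1, Acot4 and Acot3, and the transferases Gstm6, Gstm3 and Gstm2. The lower ones were the serpins and the Akr1c reductases given above, and a run of unrelated genes, Snrnp25, Rhbdf1 and Mpg. Snrnp25, a minor spliceosome protein gene, read 39.8 in C57BL/6J and 914 in NZW/LacJ, 23-fold apart, with 86.8 in BALB/CByJ, 128 in FVB/NJ and 1167 in RIIIS/J. Rhbdf1, an inactive rhomboid gene, read 35.7 in C57BL/6J and 148 in NZW/LacJ, with 30.1 in BALB/CByJ, 53.3 in FVB/NJ and 113 in RIIIS/J, and Mpg, a DNA glycosylase gene, read 111 in C57BL/6J and 253 in NZW/LacJ, with 154 in BALB/CByJ, 122 in FVB/NJ and 226 in RIIIS/J. RIIIS/J lay with NZW/LacJ in all 3. A further probe set of Mpg read 56.8 in C57BL/6J and 57.9 in NZW/LacJ. Another pair was Hdhd3 (105 in C57BL/6J, 806 in NZW/LacJ) and Alad, which lie in a segment known to vary in copy number among mouse strains, and copy number was not measured here. The kinase gene Prkd3 read 1832 in C57BL/6J and 205 in NZW/LacJ, 8.92-fold higher. All 3 further probe sets of Prkd3 were higher too, but by only 0.48 to 1.09 log2, against 3.16 on the probe set that stands for it. Its neighbour Qpct read 86.9 in C57BL/6J and 26.7 in NZW/LacJ.

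Several probe sets per gene gave a check within the arrays. Of the genes called higher, 221 had a further detected probe set, and in 173 (78.3%) all of these pointed the same way, in 69 of them by at least 2-fold. Of the genes called lower, 176 had one, and in 126 (71.6%) all pointed the same way, in 60 of them by at least 2-fold. In 2 genes called higher, and in 0 called lower, a further probe set was at least 2-fold apart in the opposite direction. Over 8432 pairs of probe sets of the same gene, differences between C57BL/6J and NZW/LacJ disagreed by a median of 0.265 log2. Probe sets of a gene share both arrays, so their agreement does not measure the spread between animals.

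**Figure D5:**
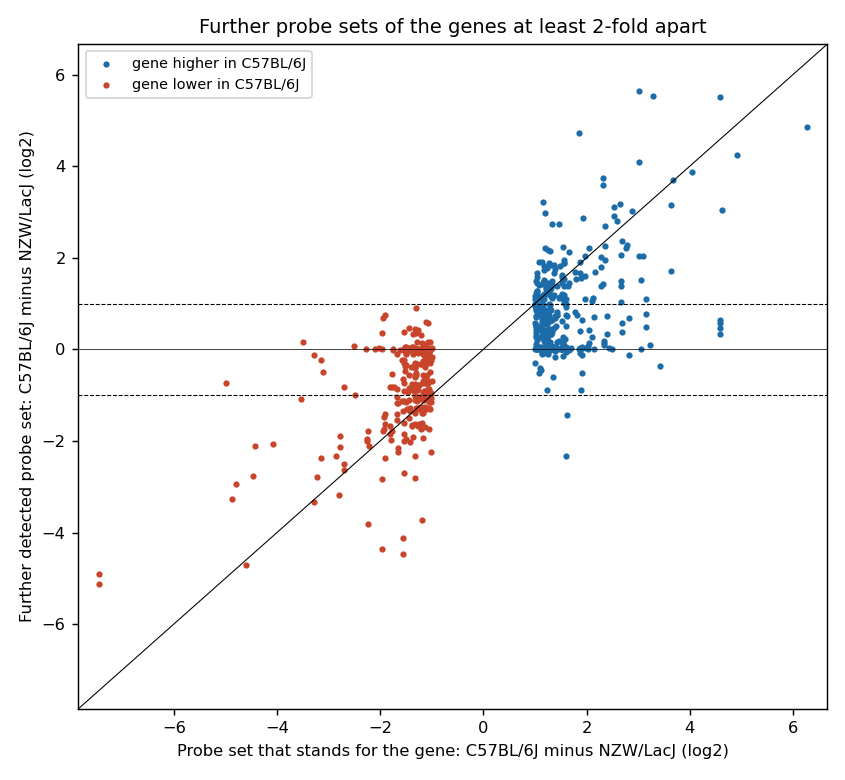
Difference between C57BL/6J and NZW/LacJ (log2) of each further detected probe set (vertical axis) against that of the probe set that stands for the gene (horizontal axis), for called genes; blue, gene higher in C57BL/6J; red, gene lower. The solid diagonal marks equal differences and the dashed lines 2-fold; many points lie between 0 and the diagonal, and 2 genes called higher have a further probe set at least 2-fold apart in the opposite direction.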

How the data were processed

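The authors deposited linear GCRMA intensity values for 45101 probe sets on 5 arrays (the submitters' processing notes name GCRMA and GCOS, in no order). No log base or centring was stated, and the range of the values was that of a linear scale. For software versions, array batches and the genome build, nothing was given in the sources used here. The platform annotation gave 34970 probe sets 1 gene, 920 several and 9211 none, and only the first kind was used; 34766 of them matched the reference gene table, which served for names and gene order. Intensities were turned into log2. Of several probe sets for a gene, that of highest log2 mean across all arrays stood for it. The floor was the 95th percentile over 84 sensory receptor (olfactory, vomeronasal, taste) probe sets, and values under it were raised to it before the difference was taken. A gene was tested when above the floor on at least 1 of the 2 arrays, and called at 2-fold; no significance test was run. Gene names follow a rule: members of 50 lists, in each direction the 20 largest measured differences and the 10 largest bounds, and runs of 3 or more neighbours; the neighbours Prkd3, Qpct, Vnn3 and Hdhd3 were picked after their values were seen. The members and lists were chosen with earlier results of these data known. No strain sequences were used, so a sequence difference under a probe and a difference in RNA cannot be told apart. The steps were tested on simulated data. Tools were pandas 2.3.3 and numpy 2.4.6 under Python 3.11.15, with statsmodels 0.14.6 for loess and matplotlib 3.10.9 for plots.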

Additional observations from a re-analysis of the deposited data

How the results depend on the processing

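The counts of genes at least 2-fold higher or lower were recomputed under 9 alternatives and the 39 list medians and 220 leading, neighbouring or called genes under 7: a stricter floor, no floor, averaged probe sets, choice by linear mean, no _s_at, _x_at or _a_at probe sets, quantile normalization and loess centring. With a 4-fold threshold 91 genes were higher and 83 lower. A further count took only genes with more than 1 detected probe set and asked that all of these be at least 2-fold apart. It gave 69 higher and 60 lower, beside 221 called higher and 176 called lower that had a further detected probe set. Under the other 7 settings the counts ran from 319 to 478 higher and from 264 to 416 lower, lowest when probe sets were averaged per gene, and 51.1% to 54.9% of calls were higher. Of 273 list medians recomputed, 271 moved by less than 0.393 log2, the spread between probe sets of a gene. Many list medians are smaller than this spread, so they could change sign without moving that far. The sign was not the same in all settings for MHC class I and II, apolipoproteins, guanylate-binding proteins, oxidative phosphorylation, ribosomal proteins, cell division and NRF2 targets. The acute phase median kept its sign but ran from -0.54 to -0.28. The median of clock genes that peak near dusk was 1.18 with the mean of the probe sets. Without probe sets ending in _s_at, _x_at or _a_at the median of MHC class II turned to -0.77, over fewer genes. In that setting Pdlim5 turned to -2.32 and Trim34a to -0.36, while Elp6 stood at 0.01, Mt1 at 0.00 and Rab30 at 0.00, each then read from another probe set. Of 1494 values for the 220 single genes, 1344 moved by less than 0.393 log2, 145 by more, and these 5 lost or turned their sign. Of 855 called genes, 830 kept their call under quantile normalization, 823 under loess centring and, of 849 with a value, 529 with the mean of the probe sets. The strict floor, an intensity of 27.8, kept 724 of 808. Without probe sets ending in _s_at, _x_at or _a_at, 677 of 735 called genes with a value kept their call. In that setting 15 called genes had the opposite sign. No paired analysis was possible because neither strain had a replicate array. Differences near the floor and small differences in dim genes are limited by signal over background.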

Other observations

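Stress and redox genes, not described above, held small sets of called members. The background for each list was 4.14% higher and 3.45% lower. Among 18 detected genes of the amino acid and endoplasmic reticulum stress response, 2 were higher and 3 lower in C57BL/6J, with a median of -0.11. Asns, the asparagine synthetase gene, read 60.2 in C57BL/6J and 15.7 in NZW/LacJ, with 9.11 in BALB/CByJ, 15.7 in FVB/NJ and 15.7 in RIIIS/J, and the factor gene Ddit3 read 120 in C57BL/6J and 56.4 in NZW/LacJ. The chaperone genes Manf (3579 in C57BL/6J, 8649 in NZW/LacJ), Dnajb9 (1365 in C57BL/6J, 3384 in NZW/LacJ) and Creld2 (822 in C57BL/6J, 1676 in NZW/LacJ) were the lower members, while Hspa5, the gene of the main reticulum chaperone, read 13774 in C57BL/6J and 23777 in NZW/LacJ, under 2-fold. Of 17 heat shock genes, Hspa1b was lower (644 in C57BL/6J, 1718 in NZW/LacJ). Among glutathione and NRF2 targets 2 of 13 were lower, the lipid peroxide reductase gene Gpx4 (8094 in C57BL/6J, 17977 in NZW/LacJ) and Nnt, the mitochondrial transhydrogenase gene, at 708 in C57BL/6J and 1616 in NZW/LacJ, with 2475 in BALB/CByJ, 2430 in FVB/NJ and 1928 in RIIIS/J. A further probe set of Nnt read 635 in C57BL/6J and 1520 in NZW/LacJ. C57BL/6J is known to carry a deletion within Nnt, and its part in these levels was not tested.

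Receptors, transporters and immediate early genes were mostly level. The background was 4.14% higher and 3.45% lower, and a single called gene does not set a list apart from it. Pparg was higher (217 in C57BL/6J, 86.6 in NZW/LacJ) and the LXR-alpha gene Nr1h3 lower (285 in C57BL/6J, 577 in NZW/LacJ) among 17 detected nuclear receptor genes, with a median of 0.10. The organic anion transporter gene Slc22a7 was the called member of 15 transporter genes, at 380 in C57BL/6J and 1165 in NZW/LacJ, with 702 in BALB/CByJ, 1534 in FVB/NJ and 1637 in RIIIS/J. Of 13 immediate early genes, Gadd45g (71.3 in C57BL/6J, 226 in NZW/LacJ) and Ier2 (260 in C57BL/6J, 541 in NZW/LacJ) were lower. Carboxylesterases had 1 of 10 lower, Ces4a (9.70 in C57BL/6J, 25.7 in NZW/LacJ), and a median of -0.18. Among 16 alcohol and aldehyde dehydrogenases Aldh3a2 and Aldh5a1 (484 in C57BL/6J, 242 in NZW/LacJ) were higher and Aldh1b1 lower, with a median of 0.15.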
